A study of Homo sapiens with 11 samples.

Results

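IL32 is the gene of interleukin-32, and this account covers its level and its splicing in HCC78 cells that expressed tagged wild-type or S34F mutant U2AF1. The gene was found by its symbol in the expression table, where it is 1 of 57773 genes, and in the splicing tables, where 25 of 92662 unique events carry its symbol. IL32 was chosen by its values in these same data, since it was high in the S34F libraries and had an event past the study's thresholds. Its level and its percent spliced in are therefore given as descriptions with no test.

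HCC78 is a human lung adenocarcinoma cell line that carries an endogenous U2AF1 S34F allele and the SLC34A2-ROS1 fusion, so every group held some mutant U2AF1. Stable subclones were made with a tetracycline-inducible lentiviral vector, pTRIPz, coding for wild-type or S34F U2AF1 with FLAG and HA tags at the N-terminus. RNA-seq libraries came from the wild-type line with doxycycline (WT dox+, n = 2) and without it (WT dox-, n = 2), the S34F line with doxycycline (S34F dox+, n = 2) and without it (S34F dox-, n = 1), and parental cells (n = 2), which the labels give as untreated although the study also lists them as treated. Any difference between the lines is also a difference between subclones, and mutant expression and subclone cannot be told apart in a comparison of the lines with doxycycline alone. The doxycycline effect within the S34F line rests on 1 untreated library.

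Interleukin-32 is a proinflammatory cytokine that was first found as a transcript of activated natural killer and T cells, and epithelial and tumor cells also make it. It is induced by TNF, interleukin-1, interleukin-18 and interferon gamma, largely through NF-kB, and it can in turn induce TNF, interleukin-8 and other mediators. Its transcript is spliced into many forms, which code for proteins of different length. U2AF1 is the small subunit of the U2 auxiliary factor and reads the AG at the end of an intron, the 3′ splice site or acceptor. The S34F change lies in its first zinc finger and shifts which base is tolerated just before that AG.

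The acceptors that U2AF1 would read in the 5′ part of IL32 are shown first, since most splicing values below concern them. The event tables place IL32 on the plus strand of chromosome 16 in hg19, with 9 donors and 13 acceptors between 3115495 and 3131637. RefSeq gives a window of 300 bases around an IL32 transcript start in GRCh38.p14, at chr16:3065534-3065833, plus strand. No coordinates were converted between the builds. The window was instead laid along the listed sites by their spacing, and of 718 placements that covered at least 5 sites only 1 put GT after every donor and AG before every acceptor, for 8 of 8 sites. The next best placement matched 42.9% of its sites. The sequences below are 5′ to 3′ and the capitals mark the last 3 intron bases before the acceptor.
Acceptor 3115622: cactttccccataaaacCAGctgagt
Acceptor 3115643: tgagtatttgtgccaggAAGactgcg
Acceptor 3115782: tcacacctgttcctcgcCAGcaggcc
Acceptor 3115785: cacctgttcctcgccagCAGgccttg

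The acceptors at 3115782 and 3115785 lie 3 bases apart and form a tandem site called a NAGNAG, in which the AG of either copy can end the intron. Both copies read CAG, and so did acceptor 3115622, while acceptor 3115643 read AAG. The whole tandem is shown with both copies in capitals.
Tandem acceptor: cacctgttcctcgcCAGCAGgccttg

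The 4 donors in the same window all began with GTG, and donors 3115711 and 3115827 had the same last 6 exon bases, as shown here with the GT in capitals.
Donor 3115656: cagaagGTgactgt
Donor 3115688: tctcagGTggggag
Donor 3115711: ccgaagGTgaggac
Donor 3115827: ccgaagGTgagtg

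U2AF1 itself was checked first, because it is the gene that was introduced. U2AF1 was at 278 and 299 FPKM in WT dox+, 112 and 110 FPKM in WT dox-, 164 and 223 FPKM in S34F dox+, 115 FPKM in S34F dox- and 115 and 103 FPKM in parental cells. FPKM is the authors' fragment count scaled by transcript length and library size, so it can be compared between genes. All 4 doxycycline-treated libraries lay above the other 5. The labels give the mutant share of U2AF1 mRNA as 12% and 14% in WT dox+, 33% in both WT dox- libraries, 62% and 65% in S34F dox+, 28% in S34F dox- and 32% in both parental libraries. The S34F line without doxycycline thus had a mutant share close to that of parental and WT dox- cells.

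IL32, listed as ENSG00000008517.12, was highest in the S34F line whether or not doxycycline was given. It was at 108 and 106 FPKM in S34F dox+ and at 107 FPKM in S34F dox-. In the wild-type line it was at 44.3 and 48.6 FPKM with doxycycline and at 45.3 and 49.4 FPKM without it. Parental cells had the lowest levels, 28.6 and 35.3 FPKM. The 3 S34F line libraries did not overlap with the other 6, and the lowest of them was 2.15 times the highest of the rest.

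The order of the group means was S34F dox+ (107 ± 1.05 FPKM, SD, n = 2), S34F dox- (107 FPKM, n = 1), WT dox- (47.4 ± 2.91 FPKM, SD, n = 2), WT dox+ (46.5 ± 3.08 FPKM, SD, n = 2) and parental (32.0 ± 4.70 FPKM, SD, n = 2). The S34F dox- library fell between both S34F dox+ libraries, and the WT groups did not differ beyond their spread. S34F dox+ was 2.30 times WT dox+ in mean FPKM, and S34F dox- was 2.25 times WT dox-. The WT line without doxycycline was in turn 1.48 times the parental cells, with no overlap between their libraries. How many of all genes separate in this way, or like the S34F line from the other libraries, was not counted.

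**Figure D1:**
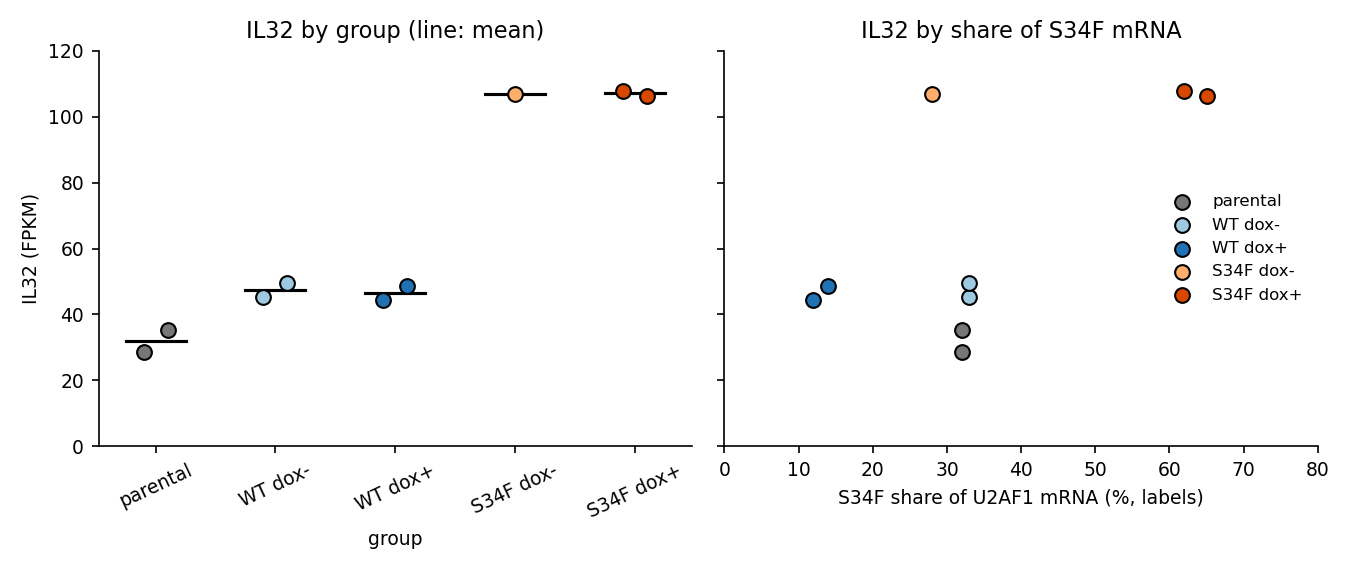
IL32 in FPKM for each of the 9 libraries, by group with the mean as a line (left) and against the S34F share of U2AF1 mRNA that the labels give, in percent (right). The 3 S34F line libraries sit at 106 to 108 FPKM, at mutant shares of 28%, 62% and 65%, and the other 6 lie at or below 49.4 FPKM.

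Doxycycline moved IL32 by little in either line. WT dox+ was 0.980 times WT dox-, and S34F dox+ was 1.00 times S34F dox-, while the mutant share of U2AF1 mRNA fell in the first comparison and rose in the second. On the log2(FPKM + 1) scale the WT dox+ minus WT dox- difference was -0.03. The response to doxycycline was 0.03 larger in the S34F line than in the WT line. Both values are smaller than the SD of IL32 between replicates, 0.12 on that scale when pooled over groups. Among libraries with a mutant share of 28% to 33%, IL32 ranged from 28.6 FPKM in a parental library to 107 FPKM in S34F dox-.

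The log2 difference of IL32 was 1.19 between S34F dox+ and WT dox+, and 1.16 between S34F dox- and WT dox-. Between WT dox- and parental cells it was 0.56. Of the 15179 genes whose mean reached 1 FPKM, 195, 137 and 795 were at or above IL32 in these differences, in that order. Within a library, IL32 stood above 74.0% and 78.4% of those genes in parental cells, 83.1% to 84.5% in the WT line and 92.8% to 93.4% in the S34F line. In TPM, the authors' values scaled to a fixed total of transcripts, IL32 was at 87.3 and 91.6 in S34F dox+, 97.2 in S34F dox-, 40.6 to 43.6 in the WT line and 23.9 and 28.9 in parental cells.

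Interleukin-32 is made by lymphocytes as well, so T cell and NK cell markers were read beside it. The 11 markers, among them the T cell receptor subunits CD3D, CD3E and CD3G and the cytotoxic granule genes GNLY, PRF1 and NKG7, summed to 0.880 FPKM in S34F dox-, to 4.66 and 9.74 FPKM in S34F dox+ and to 1.83 to 6.89 FPKM in the other libraries. S34F dox- thus had the lowest sum of all 9 libraries and an IL32 level equal to that of S34F dox+. It also had the fewest genes at 1 FPKM or above, 13661. The second replicates of S34F dox+ and WT dox+, with the highest sums, had the most such genes, 20896 and 17716. Sums of low values may therefore not compare well between libraries, which was not tested. Other genes at low FPKM share this limit. Only PTPRC, which codes for the leukocyte antigen CD45, reached a mean of 1 FPKM. Among the epithelial and lung adenocarcinoma markers, KRT7, KRT19 and KRT8, keratins of simple epithelia, had means of 3667, 1986 and 1944 FPKM. NKX2-1, the lung lineage transcription factor, had a mean of 55.8 FPKM, but the products of mature alveolar cells were low, with NAPSA at 3.99 FPKM and SFTPB at 0.928 FPKM. The 7 fibroblast markers summed to 3.74 to 13.9 FPKM.

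The other interleukin genes were read beside IL32. Of 44 genes named as an interleukin or an interleukin receptor by the pattern used, 7 reached a mean of 1 FPKM, and IL18 was the highest at 44.6 FPKM, above IL32 in parental cells and below it in the S34F line. IL18, an inducer of interleukin-32, was at 52.3 and 49.9 FPKM in S34F dox+, 46.8 FPKM in S34F dox-, 48.5 and 43.4 FPKM in WT dox+, 35.5 and 35.3 FPKM in WT dox- and 45.3 and 44.6 FPKM in parental cells. Its S34F dox+ minus WT dox+ difference was 0.15 on the log2 scale (limma adjusted p = 0.829). Between S34F dox-, with 1 library, and WT dox- its difference was larger, 0.39, and is given as an effect size only. IL4R, a receptor subunit for interleukin-4, had a mean of 32.2 FPKM, IL6R of 9.41 FPKM, IL23A of 3.92 FPKM, IL15 of 2.71 FPKM, IL7 of 2.18 FPKM and IL17D of 1.56 FPKM. None of the 7 passed an adjusted p of 0.05 by limma in any of the 5 comparisons. Of the 7, 2 passed an unadjusted p of 0.05 between S34F dox+ and WT dox+, IL23A and IL4R, beside 6.78% of all tested genes. IL18 and IL6R passed it between WT dox+ and WT dox-, beside 14.4% of all tested genes. Both also passed it between WT dox- and parental cells, beside 12.3%.

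The pathway around IL32 and the cell type markers above were covered by 7 lists of 80 genes, of which 56 were tested. Genes were tested with limma on log2(FPKM + 1), with p-values adjusted by Benjamini-Hochberg over all 15179 genes. No listed gene passed an adjusted p of 0.05 in any of the 5 comparisons. Few genes of any kind did: 0.0527% of all tested genes passed between S34F dox+ and WT dox+, 0.0461% between S34F dox- and WT dox-, 0.0132% between WT dox+ and WT dox-, 0.0988% between WT dox- and parental cells, and 0.0264% for the difference between the lines in their doxycycline response. At an unadjusted p under 0.05 the listed genes numbered 5, 2, 11, 12 and 1 of 56 in the same order, beside 6.78%, 3.12%, 14.4%, 12.3% and 3.42% of all tested genes. ITGB3 is 1 of the 5 between S34F dox+ and WT dox+ and the 1 for the doxycycline response. It reached a mean of 1 FPKM only through S34F dox+, so its place in these counts depends on the libraries where it was high. The labels do not say that replicates were separate cultures, so p-values measure only the spread between these libraries.

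Among the cytokines that induce IL32 and their receptors, 7 of 12 genes were tested and none was called between S34F dox+ and WT dox+. The cytokines TNF, IL1A, IL1B and IFNG all had means under 1 FPKM. TNFRSF1A, the main TNF receptor, had a mean of 50.8 FPKM and IFNGR2, a subunit of the interferon gamma receptor, 33.7 FPKM. IFNGR2 was at 40.5 and 36.6 FPKM in S34F dox+ and 40.0 FPKM in S34F dox-, against 28.3 and 28.4 FPKM in WT dox+ and 30.2 and 32.3 FPKM in WT dox-. Its libraries did not overlap between the lines, but the log2 difference with doxycycline, 0.43 ± 0.11 (SE), had a limma adjusted p of 0.543. Without doxycycline the IFNGR2 difference was 0.35, from 1 S34F library. The median log2 difference of this list was 0.15, beside 0.03 over all tested genes.

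All 18 genes of the list of NF-kB and partner transcription factors were tested and none was called between S34F dox+ and WT dox+, with a median log2 difference of 0.11. STAT3, RELA and NFKBIA had the highest means, 73.4, 59.2 and 62.3 FPKM. NFKBIA, which codes for the inhibitor that NF-kB itself induces, was at 81.4 and 66.6 FPKM in S34F dox+, 70.0 FPKM in S34F dox-, 52.2 and 53.0 FPKM in WT dox+ and 73.9 and 60.0 FPKM in WT dox-. The S34F dox+ libraries lay above WT dox+ but overlapped with WT dox-, and the log2 difference from WT dox+ was 0.48 ± 0.14 (SE, limma adjusted p = 0.568). TNFAIP3, another NF-kB target that dampens the pathway, was named after its values were seen: it was at 54.3 and 65.7 FPKM in S34F dox+, 74.0 FPKM in S34F dox-, 30.1 and 36.4 FPKM in WT dox+ and 87.3 and 53.4 FPKM in WT dox-. TNFAIP3 thus differed from IL32, being as high in WT dox- as in the S34F line.

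Of the binding partners and linked signaling genes, 12 of 14 were tested and none was called between S34F dox+ and WT dox+, with a median log2 difference of 0.21. ITGB1, the common beta subunit of many integrins, had a mean of 581 FPKM, PXN, the focal adhesion adaptor paxillin, 75.1 FPKM and PTK2, focal adhesion kinase, 44.5 FPKM. PRTN3, the neutrophil protease that binds interleukin-32, had a mean of 0.0244 FPKM. ITGB3, an integrin subunit that pairs with ITGAV, was named after its values were seen: it was at 4.09 and 1.89 FPKM in S34F dox+ and at or under 0.890 FPKM in the other 7 libraries, with S34F dox- at 0.310 FPKM. It reached the mean of 1 FPKM that testing required only through S34F dox+, so no p-value is given for it. ITGB3 is still among the 12 tested genes and enters their median.

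Of the mediators that interleukin-32 can induce, 8 of 11 were tested and none was called between S34F dox+ and WT dox+. Their median log2 difference was 0.26, beside 0.03 over all tested genes. Between S34F dox-, with 1 library, and WT dox- the medians were -0.07 for the inducing cytokines and receptors and 0.08 for the NF-kB list. They were -0.06 for the binding partners and 0.32 for the mediators, beside -0.01 over all tested genes. VEGFA, the angiogenic growth factor, had a mean of 105 FPKM, and ICAM1, the leukocyte adhesion molecule, 47.3 FPKM. CXCL1, a chemokine for neutrophils, was at 48.3 and 37.8 FPKM in S34F dox+, 35.97 FPKM in S34F dox-, 30.0 and 26.5 FPKM in WT dox+, 28.5 and 21.2 FPKM in WT dox- and 23.9 and 29.4 FPKM in parental cells. CXCL1 was higher in every S34F line library than in the other 6. On the log2 scale the line difference was 0.58 ± 0.19 (SE) with doxycycline (limma adjusted p = 0.619) and 0.53 without it. The share of all tested genes that separate the lines like CXCL1, or like IFNGR2 above, was not counted. CXCL8, the chemokine interleukin-8, had a mean of 2.51 FPKM, and IL6 of 0.480 FPKM.

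**Figure D2:**
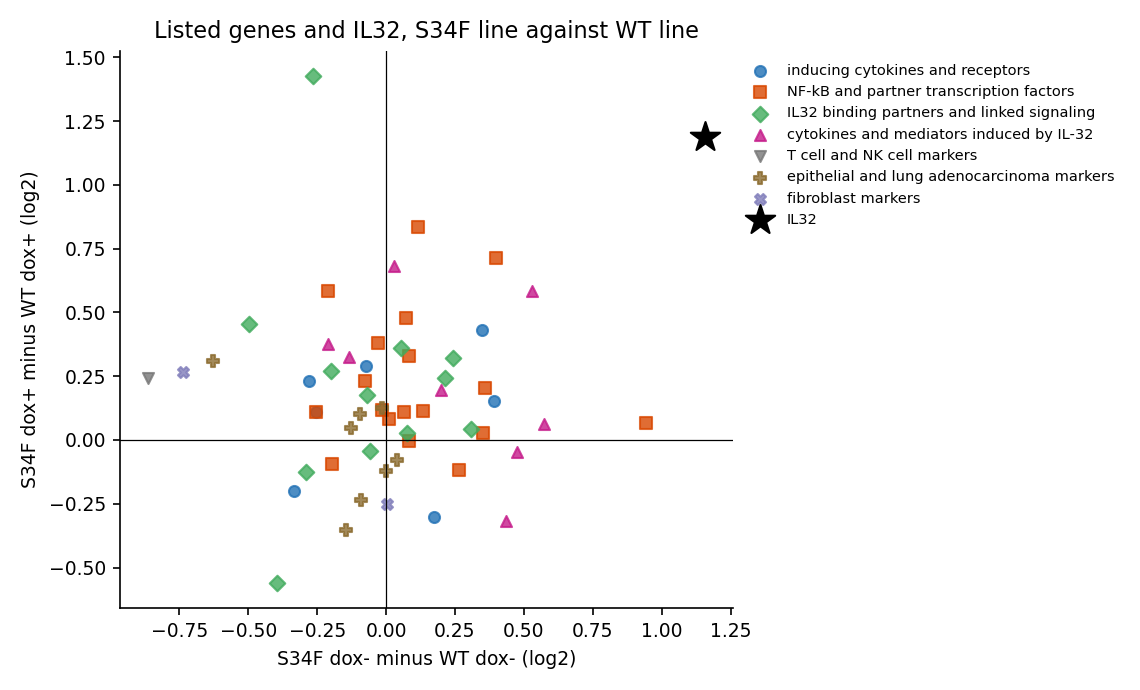
Log2 differences on the log2(FPKM + 1) scale of the 56 tested listed genes and of IL32, S34F line minus WT line, without doxycycline on the x axis and with it on the y axis, with a symbol for each list. IL32, at 1.16 and 1.19, lies at the upper right with no listed gene beside it.

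The genes next to IL32 were lower and did not show its step in all S34F line libraries. Of the 5 annotated genes on each side in RefSeq, 6 of 10 were in the table and 2 were tested, BICDL2 and the antisense RNA MMP25-AS1. BICDL2 was at 5.57 and 10.2 FPKM in S34F dox+, 6.76 FPKM in S34F dox- and 6.30 to 9.24 FPKM in the WT line, so the lines overlapped. MMP25-AS1 was at 3.47 and 3.50 FPKM in S34F dox+, 1.97 FPKM in S34F dox-, 2.21 and 1.90 FPKM in WT dox+, 2.69 and 1.39 FPKM in WT dox- and 2.13 and 3.05 FPKM in parental cells. Both S34F dox+ libraries thus lay above the other 7, while S34F dox- lay within the range of the WT line. The share of all tested genes that separate in this way was not counted. For MMP25-AS1 the log2 difference between the lines with doxycycline was 0.56 (limma adjusted p = 0.772). MMP25 had a mean of 0.461 FPKM. Farther out, THOC6, named after its values were seen and known as a subunit of the mRNA export complex TREX, was at 9.52, 11.8 and 12.2 FPKM in the S34F line and 8.80 to 17.6 FPKM in the WT line. Of the 8 nearest protein-coding genes 4 were tested, ZNF205 and ZNF213 among them. Their median log2 difference between the lines was 0.05 with doxycycline and -0.33 without it, from 1 S34F library.

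A stretch of the region upstream of the other RefSeq start of IL32 is shown because it holds letters that factors of the lists are known to read. It covers chr16:3065272-3065322 of GRCh38.p14, plus strand, and the capitals mark a cyclic AMP response element and an NF-kB-like stretch.
IL32 upstream stretch: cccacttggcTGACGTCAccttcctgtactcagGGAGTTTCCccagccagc
The motif TGACGTCA began 121 bases before the start, and it was found in 1.85% of 35116 RefSeq promoter windows of the same length. The motif GGANTTTCC, searched on both strands, began 98 bases before the start and was found in 1.64% of the windows. The motifs were chosen after this sequence was read, and a match is a description and not a binding site.

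The pattern of IL32 across the 9 libraries was most like that of CD96, CLCC1, FAM83B, BTBD7 and DSP among 10023 genes whose mean reached 5 FPKM, with Pearson's r of 0.962, 0.958, 0.930, 0.924 and 0.924 on the log2(FPKM + 1) scale. These values describe 9 libraries that share lines, and they rest on the IL32 values for which the gene was chosen. CD96 and DSP reached that mean only with the S34F line included, so their place in the ranking depends on the libraries where they were high. CD96, a receptor of T and NK cells, was at 19.5 and 18.9 FPKM in S34F dox+ and 11.7 FPKM in S34F dox-, and at 0.0200 to 1.17 FPKM in the other 6. CD96 was therefore detected mainly in the S34F line, while the summed T and NK cell markers of the S34F line overlapped with those of the other libraries. DSP, desmoplakin of the desmosome, was at 19.3, 21.9 and 17.2 FPKM in the S34F line and at 2.98 to 5.40 FPKM in the others. CLCC1, FAM83B and BTBD7 moved less, from 14.5 to 23.1, 9.29 to 12.8 and 21.0 to 28.5 FPKM over the libraries. By Spearman's correlation 0 of these 5 genes stayed among the closest 5.

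**Figure D3:**
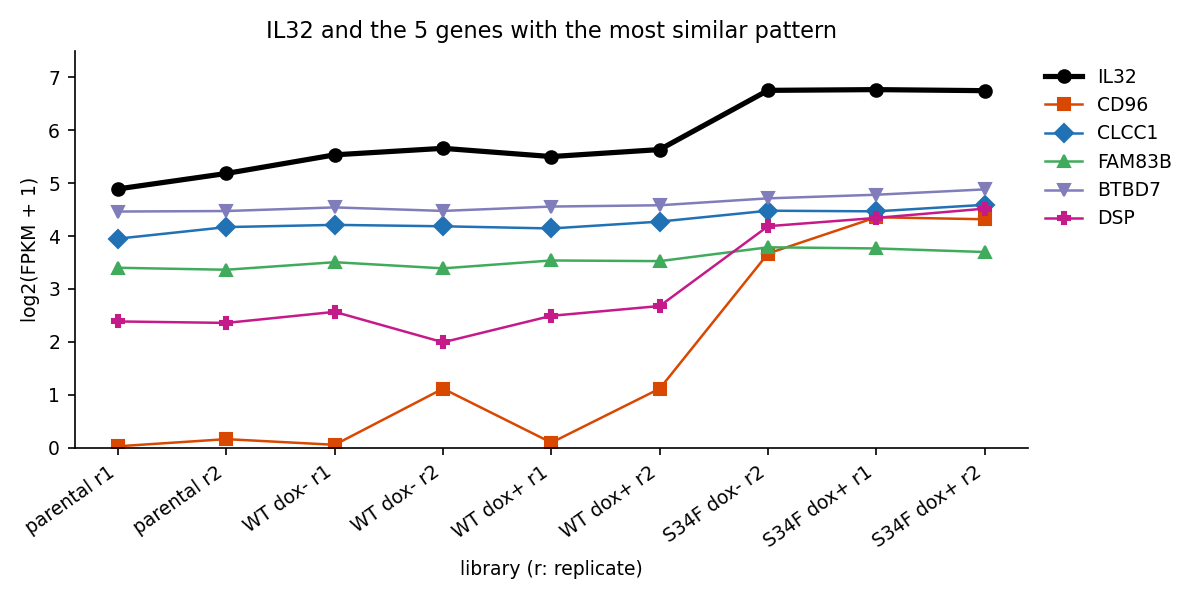
IL32 and the 5 genes with the highest Pearson's r to it, as log2(FPKM + 1) in each of the 9 libraries, where r stands for replicate. IL32, CD96 and DSP step up in the 3 S34F line libraries, and the other 3 genes differ less between libraries.

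Splicing of IL32 was read from the authors' comparison of S34F mutant with wild-type cells. Each event has 1 percent spliced in (PSI) value per condition, a fraction from 0 to 1, and 1 Bayes factor, so no replicate spread can be given. Which libraries entered it is not given in the sources used here. PSI was read as the share of the form listed first, which for retained introns is the spliced form: the ACTB and EEF1A1 events of that type had PSI of 0.91 to 0.99. An event passed where PSI differed by at least 0.10, the Bayes factor was at least 5 and the reads summed to at least 10.

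Of the 25 IL32 events, 1 passed, beside 1.18% of 87763 events of all 5 types and 1.12% of the alternative 3′ splice sites. It was the choice between acceptors 3117378 and 3117444 from donor 3115827. PSI of the upstream acceptor was 0.95 in S34F and 0.67 in wild-type cells, a difference of 0.28 with a Bayes factor of 6.57. The acceptors lie 66 bases apart, and the introns that they end are 1550 and 1616 bases long. The exon from the upstream acceptor to donor 3117416 is 39 bases long, and the downstream acceptor lies 28 bases beyond that donor, within the intron that other transcripts remove. The exons of the 2 forms thus differ by 66 bases only where that intron is kept, with 237 and 171 bases up to donor 3117614. Of 4961 alternative 3′ splice site events with at least as many reads, 128, or 2.58%, had a difference at least as large. The acceptors of this event lie outside the RefSeq windows, so their bases were not analysed here.

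The read counts behind the events, 472 in S34F and 300 in wild-type cells for that event, recur in 7 events with different junctions. They therefore cannot be counts over the event's own junctions alone, and the support for a single junction is not known. The ratio of those counts was 1.57, beside a median of 0.688 over all events, so IL32 reads were 2.29 times as many in S34F cells relative to the median event. These reads and the expression values come from the same experiment, so this is no independent measure of the level.

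Across the other 24 events the largest Bayes factor was 1.87. PSI was higher in S34F cells in 13 of the 25 events, lower in 11 and equal in 1. It differed by at least 0.10 in 9 events, or 36%, beside 32.9% of all events with enough reads, and the median absolute difference was 0.06, beside 0.05. Both shares and both medians were close, so the IL32 events as a set did not stand out from all events.

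**Figure D4:**
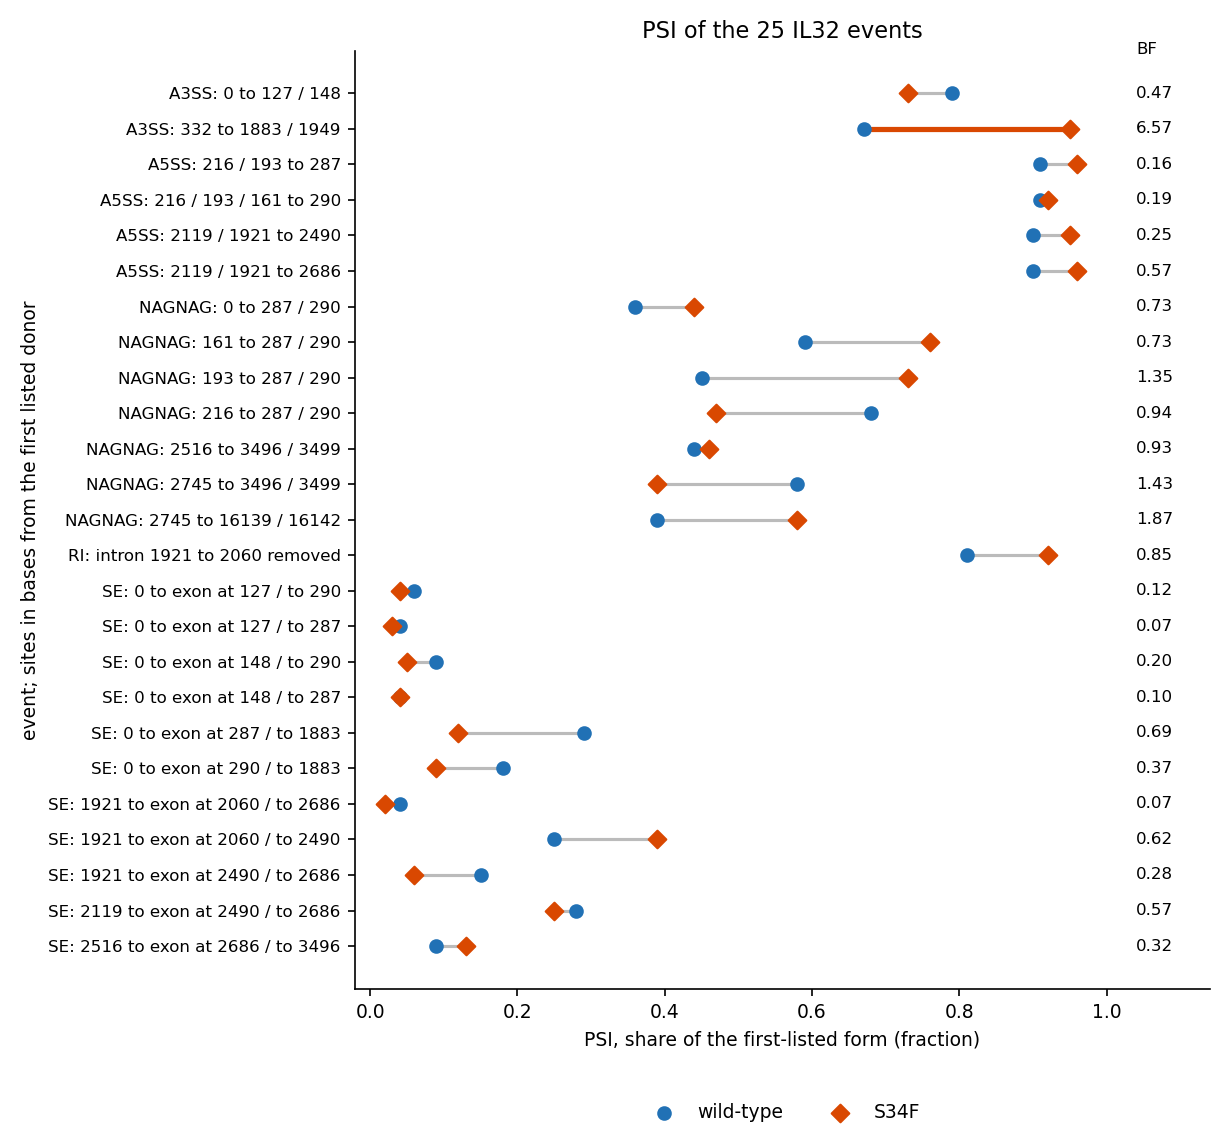
PSI of each of the 25 IL32 events in wild-type (circles) and S34F cells (diamonds), with the Bayes factor (BF) at the right and sites given in bases from the first listed donor. A3SS and A5SS are alternative 3′ and 5′ splice sites, RI a retained intron and SE a skipped exon, and the orange bar marks the event past the thresholds, at 0.67 and 0.95.

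The same exon start was compared in other ways. From the first listed donor, 3115495, the form that included the exon at 3115782 rather than joining 3117378 directly stood at a PSI of 0.12 in S34F against 0.29 in wild-type cells (Bayes factor 0.69). With the exon start at 3115785 the values were 0.09 and 0.18 (Bayes factor 0.37). Inclusion of the small exons that start at 3115622 or 3115643 lay between 0.03 and 0.09 in all 4 events and both conditions. Between those acceptors, 21 bases apart, the upstream CAG site was used at 0.73 in S34F cells and 0.79 in wild-type cells, against the AAG site.

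At the CAGCAG tandem shown above, the share of the upstream copy moved in different directions with the donor. From donor 3115688 it was 0.73 in S34F and 0.45 in wild-type cells, and from donor 3115656 it was 0.76 and 0.59. From donor 3115711 it was 0.47 and 0.68, and from donor 3115495 it was 0.44 and 0.36. The Bayes factors were 1.35, 0.73, 0.94 and 0.73, so none of these differences passed. The acceptor letters are the same in all 4 events. At the other tandem, 3118991 and 3118994, the upstream share was 0.39 in S34F and 0.58 in wild-type cells from donor 3118240 (Bayes factor 1.43) and 0.46 and 0.44 from donor 3118011 (Bayes factor 0.93).

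**Figure D5:**
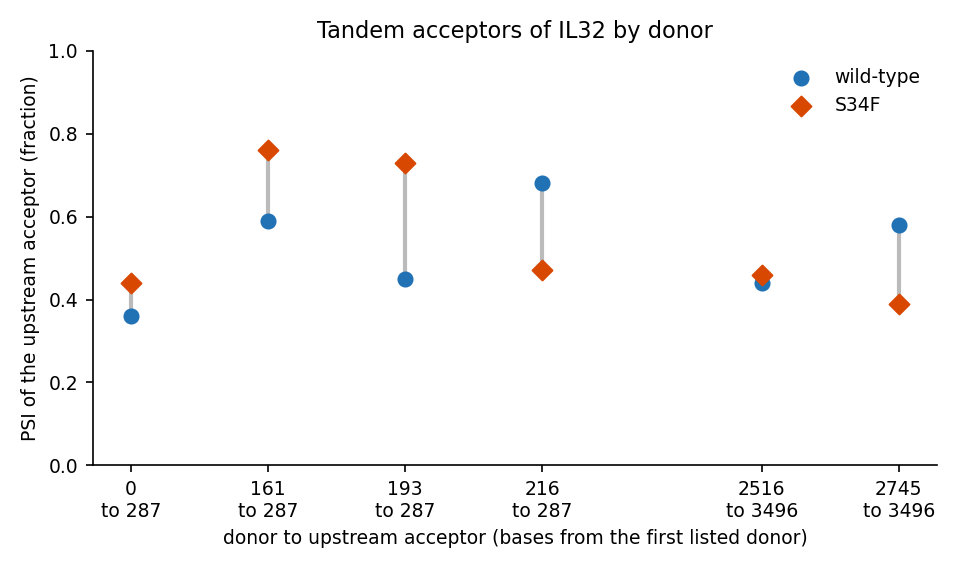
PSI of the upstream acceptor at the tandem acceptors of IL32, by donor, in wild-type (circles) and S34F cells (diamonds), with sites in bases from the first listed donor. Of the 4 donors that join the tandem at 287, the S34F value is lower for 216 alone, at 0.47 against 0.68.

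Donor choice differed less. Donor 3115711 rather than 3115688 was used for acceptor 3115782 at 0.96 in S34F cells and 0.91 in wild-type cells (Bayes factor 0.16). An event with 3 donors joined to acceptor 3115785 gave 0.03, 0.05 and 0.92 in S34F and 0.03, 0.05 and 0.91 in wild-type cells, from 16 and 28 reads. Donor 3117614 rather than 3117416 was used at 0.95 and 0.90 for acceptor 3117985 and at 0.96 and 0.90 for acceptor 3118181.

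The middle of the gene holds an intron of 138 bases between donor 3117416 and acceptor 3117555, which can be kept. PSI of its spliced form was 0.92 in S34F cells against 0.81 in wild-type cells, with a Bayes factor of 0.85. The exon that follows, 60 bases up to donor 3117614, was included at 0.39 and 0.25 where the other form joined 3117985 (Bayes factor 0.62), but at 0.02 and 0.04 where it joined 3118181 (Bayes factor 0.07). Both of those values sit beside a share of at least 0.90 for the donor at the end of the same exon. PSI values of different IL32 events thus do not describe a single set of transcripts and were not combined.

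The 27-base exon from 3117985 to 3118011 was included at 0.25 in S34F and 0.28 in wild-type cells after donor 3117614, and at 0.06 and 0.15 after donor 3117416. The 60-base exon from 3118181 to 3118240 was included at 0.13 and 0.09 after donor 3118011. These exons, the kept intron and the step between the called acceptors all have lengths that are multiples of 3. The last event joined donor 3118240 to a tandem 13394 bases downstream, at 3131634 and 3131637, with 6 reads in S34F and 9 in wild-type cells, too few in either condition alone.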

How the data were processed

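RNA-seq values were the authors' deposited FPKM and TPM for 9 libraries, made with RSEM 1.2.29 after alignment with STAR 2.3.0 to GRCh37/hg19 per the labels and methods. Total read depth per library is not given in the sources used here. The 5 deposited splicing tables came from MISO and hold, per event, PSI as a fraction, read counts and a Bayes factor, with no replicates. The authors' PSI difference column was not used, and differences were recomputed. The deposited iCLIP data were not analysed here.

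The 15179 genes whose mean reached 1 FPKM were fitted as log2(FPKM + 1) with limma 3.58.1 in R 4.3.3, in 5 groups with 4 residual degrees of freedom and trended variance, for 5 comparisons, and were tested on simulated data beforehand. This scale understates changes of low genes. Events were counted once by name, and multi-isoform events used the isoform with the largest Bayes factor. Gene IDs matched a current symbol for 51996 of 57773. No pairing by replicate number was seen: correlations of deviations lay between -0.08 and 0.04. Such correlations do not exclude a batch shared by replicate number. Named genes were IL32, U2AF1, listed genes past the threshold, the 3 highest of each list, neighbours, interleukins at 1 FPKM or above and the 5 most similar genes; THOC6 and its neighbours were added later. IL32, the lists and tests were chosen with earlier results of these data known. Alternatives are given in the closing section.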

Additional observations from a re-analysis of the deposited data

How the results depend on the processing

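The IL32 log2 differences moved by less than the pooled SD between replicates in 65 of 68 alternatives. The exceptions were TPM in place of FPKM for the difference between the lines in doxycycline response (-0.12) and leaving out either parental library for WT dox- against parental cells. Many of the 68 could not move, because a library outside a comparison does not enter its difference. For S34F dox+ against WT dox+, leaving out either parental library left the difference at 1.19 for this reason. With 1 library left out at a time, the difference ranged from 1.12 to 1.25 for S34F dox+ against WT dox+, 1.10 to 1.22 for S34F dox- against WT dox-, -0.09 to 0.04 for WT dox+ against WT dox-, 0.41 to 0.71 for WT dox- against parental cells (0.41 without parental replicate 1 and 0.71 without replicate 2) and -0.03 to 0.10 for the response. The lone library of a group was then assumed to vary like the others. S34F dox- has 1 library, so its comparisons have no value without it. With the replicate block the IL32 difference was 1.19 with doxycycline and 1.09 without it. No listed gene was called in any of 78 alternative fits, the replicate block (0 called) included. Over all genes, the calls varied with the setting: from 3 to 28 beside 8 for S34F dox+ against WT dox+ (28 without S34F dox+ replicate 1), from 4 to 112 beside 7 for S34F dox- against WT dox- (112 with no minimum FPKM), from 0 to 9 beside 2 for WT dox+ against WT dox-, from 3 to 28 beside 15 for WT dox- against parental cells and from 2 to 33 beside 4 for the response; the cause was not tested. The splicing count was 1 with 10 reads in each condition or a PSI difference of 0.20, 4 with a Bayes factor of at least 1 and 0 with at least 20. Spearman's correlation kept 0 of the 5 most similar genes. Depth behind single junctions is not known, and the PSI values have no replicates.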
